A study of Mus musculus with 12 samples.

Results

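The schlafen family is a cluster of mouse genes on chromosome 11 with roles in the immune system, and 7 of its members were followed here in the meninges, the membranes around the brain, of mice given dextran sulfate sodium (DSS) and of controls. The members were the rows of the deposited count table named Slfn1, Slfn2, Slfn3, Slfn4, Slfn5, Slfn8 and Slfn9, which are 7 of its 47747 gene symbols. They were picked with the DSS against Control differences of these mice in view, so those differences are given below as a description. No p-value is given for them, and the count of members past the threshold of the fit over all genes supports nothing. The other rows whose symbols begin with Slfn, namely Slfn10-ps, Slfn14, Slfnl1 and Slfn5os, are not members and are mentioned where they bear on the members' reads.

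Schlafen proteins share a core domain that binds RNA, and several of them bind or cut transfer RNA. In mice they are commonly sorted by size: Slfn1 and Slfn2 are short forms made of little more than the core, Slfn3 and Slfn4 are intermediate forms, and Slfn5, Slfn8 and Slfn9 are long forms that also carry a helicase-like domain. The family was first described in thymocytes and T lymphocytes, where members restrain proliferation, and several members are induced by type I interferon and by microbial products in macrophages and other myeloid cells.

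The DSS group comprised 6 C57BL/6 mice that drank 2% DSS, a sulfated sugar polymer that damages the lining of the colon and so causes colitis, for 5 days and then plain water. The Control group comprised 6 C57BL/6 mice without DSS. Culling was after 6 days, and the labels do not state from which day this was counted, nor the age or sex of the mice. No allele or transgene is named for either group. The question addressed is whether colitis comes with altered gene expression in the meninges.

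Each mouse gave 1 library of total RNA, with 13078923 to 28544877 counts in DSS mice and 9312788 to 41869997 counts in Control mice. A source label names the colon while the titles and protocol name the meninges. Meningeal fibroblast markers (6 genes) summed to between 5312 and 10360 CPM (counts scaled by library size to a common depth) in DSS mice and between 5463 and 8292 CPM in Control mice. Colon epithelium markers (6 genes) summed to between 1.12 and 8.62 CPM in DSS mice and between 1.84 and 5.22 CPM in Control mice, with the intestinal regulator Cdx2 at 0 in every library. A few libraries stood apart. Ribosomal RNA rows took 59.8% of the counts of Control replicate 2, against between 0.0430% and 2.76% in DSS mice and between 0.194% and 9.23% in the other Control mice. Skeletal muscle markers (5 genes) summed to 152.6 CPM in DSS replicate 2 and to at most 8.54 CPM in any other mouse. Choroid plexus markers (4 genes) ranged from 10.8 to 6777 CPM in DSS mice and from 16.6 to 6666 CPM in Control mice. The labels do not say whether mice shared a cage or a day of dissection.

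On GRCm38, the assembly that mm10 denotes, the members lie on chromosome 11 between Slfn5, whose annotated start is at 82951349, and Slfn3, whose end is at 83215154. The order along the chromosome is Slfn5, Slfn9, Slfn8, the pseudogene Slfn10-ps, Slfn2, Slfn1, Slfn4 and Slfn3, followed by Slfn14. Slfn5, Slfn2, Slfn1, Slfn4 and Slfn3 are on the plus strand, and Slfn9 and Slfn8 are on the minus strand. Slfn4 spans 83175186 to 83190216, Slfn1 spans 83116849 to 83122670 and Slfn2 spans 83065112 to 83070678. Slfn4 and Slfn3 are separated by 1113 bases. Counts cover whole genes, so no exon or intron is singled out.

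All 7 members matched an entry in the RefSeq promoter table for GRCm38.p6, which holds 250 bases before and 50 bases after each gene's RefSeq start, on the gene's strand. That start equals the GENCODE one given above for every member but Slfn1, where it lies 29 bases upstream, and Slfn5, where it lies 753 bases downstream at 82952102, inside the gene as GENCODE draws it. For Slfn8 this holds for the first of its entries, which was used, while a further entry starts downstream of it. The promoters of Slfn4, Slfn1 and Slfn2 are shown whole because these were the members whose DSS and Control mice did not overlap. The letters in capitals, ACTTCCTGGAG, are the longest run that the 3 promoters have in common on the same strand, found by searching after the expression values had been seen. The windows lie at chr11:83174936-83175235 for Slfn4, chr11:83116570-83116869 for Slfn1 and chr11:83064862-83065161 for Slfn2, all on the plus strand.
Slfn4 promoter: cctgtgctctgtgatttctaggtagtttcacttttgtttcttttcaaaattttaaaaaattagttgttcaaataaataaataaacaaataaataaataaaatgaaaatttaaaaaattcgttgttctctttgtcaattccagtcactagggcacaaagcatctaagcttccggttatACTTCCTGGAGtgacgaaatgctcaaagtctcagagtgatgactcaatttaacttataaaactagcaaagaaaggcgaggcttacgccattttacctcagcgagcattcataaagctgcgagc
Slfn1 promoter: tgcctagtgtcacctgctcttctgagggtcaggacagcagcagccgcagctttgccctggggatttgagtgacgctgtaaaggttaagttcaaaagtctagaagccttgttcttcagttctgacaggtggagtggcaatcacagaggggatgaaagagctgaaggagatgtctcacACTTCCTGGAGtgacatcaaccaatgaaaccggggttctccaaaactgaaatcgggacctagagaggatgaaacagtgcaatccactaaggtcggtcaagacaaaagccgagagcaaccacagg
Slfn2 promoter: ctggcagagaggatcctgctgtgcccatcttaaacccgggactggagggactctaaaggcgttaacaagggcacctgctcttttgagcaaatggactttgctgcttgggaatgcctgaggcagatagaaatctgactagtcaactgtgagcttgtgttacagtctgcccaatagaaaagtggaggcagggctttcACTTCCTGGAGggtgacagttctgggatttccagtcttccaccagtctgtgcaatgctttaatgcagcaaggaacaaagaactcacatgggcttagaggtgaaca
The stretch begins 73 bases before the start of Slfn4, 74 bases before that of Slfn1 and 55 bases before that of Slfn2. On either strand it occurs in 24 of the 32851 mouse promoters in the table (0.0731%). Its presence in the promoters of Slfn4, Slfn1 and Slfn2 was fixed by the search, and these are among the 24. Nothing is read from this share, and no other set of members was searched for a shared run. The closest match in the Slfn3 promoter has 1 mismatch and begins 42 bases before the start. The closest matches in the promoters of Slfn5, Slfn8 and Slfn9 have 3 to 4 mismatches.

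The 3 long members hold a different run of letters. The core of the interferon-stimulated response element, to which interferon-activated factors bind, reads GAAA, any 2 bases and GAAA again, and was searched on both strands of all 7 promoters. An exact match is present in Slfn5, Slfn8 and Slfn9 and in none of the short or intermediate members, against 1131 of the 32851 promoters (3.44%). Near matches were not counted, and the Slfn4 promoter holds a run that misses the opposite-strand form only in its last letter. The division of the members by this motif thus depends on asking for an exact match. Stretches of 60 bases around the motif are shown for the members with an exact match. The motif is in capitals and is read on the opposite strand in Slfn8 and Slfn9. They lie at chr11:82951922.0-82951981.0 on the plus strand for Slfn5, and at chr11:83020824.0-83020883.0 for Slfn8 and chr11:82991841.0-82991900.0 for Slfn9, both on the minus strand.
Slfn5 window: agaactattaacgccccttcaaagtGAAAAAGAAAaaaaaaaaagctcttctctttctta
Slfn8 window: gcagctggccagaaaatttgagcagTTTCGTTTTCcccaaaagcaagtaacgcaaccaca
Slfn9 window: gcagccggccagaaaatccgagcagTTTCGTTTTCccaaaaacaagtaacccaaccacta
Counted from the RefSeq starts, the motif begins 155 bases before that of Slfn5, 48 bases before that of Slfn8 and 45 bases before that of Slfn9. In the further Slfn8 entry, whose window begins at 83020673, the motif begins 136 bases before the start. The whole promoters of Slfn8 and Slfn9 were 80.8% identical when aligned, while the other 20 pairs of members were between 46.5% and 53.0% identical. Of the other motifs searched, the gamma-activated sequence TTCNNNGAA was in 0 of the 7 members and 8.30% of all promoters. An exact PU.1 motif, GAGGAAGT, was in 0 of the 7 and 3.20% of all promoters. The stretch shared by Slfn4, Slfn1 and Slfn2, read on the opposite strand, holds the PU.1 motif except for its first letter. The C/EBP motif TTGCNNAA was in Slfn2 and Slfn3 and in 10.8% of all promoters. A match describes letters in this window and does not show that a factor binds there, and a missing match says nothing about the factor.

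Schlafen transcripts were higher in the meninges of DSS mice than of Control mice, and by very different amounts from member to member. All 7 members passed the filter on low counts in every library of both groups, and all 7 had a positive log2 fold change. The fitted DSS over Control fold was 9.76 for Slfn4, 3.37 for Slfn1 and 1.71 for Slfn2, against 1.43 for Slfn9, 1.26 for Slfn8, 1.24 for Slfn5 and 1.13 for Slfn3. The median log2 fold change of the members was 0.52, beside -0.022 over all 18593 genes tested. In the edgeR fit across all genes, 4 of the 7 members (Slfn4, Slfn1, Slfn2 and Slfn5) were past the 0.05 threshold of adjusted p in the higher direction, where 3.68% of all tested genes were (1.26% in the lower direction and 4.94% in either). In 3 of the 7 members (Slfn4, Slfn1 and Slfn2) every DSS mouse lay above every Control mouse, where 2.23% of all tested genes did. Nothing is read from these counts, because the members were chosen on this contrast.

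**Figure D1:**
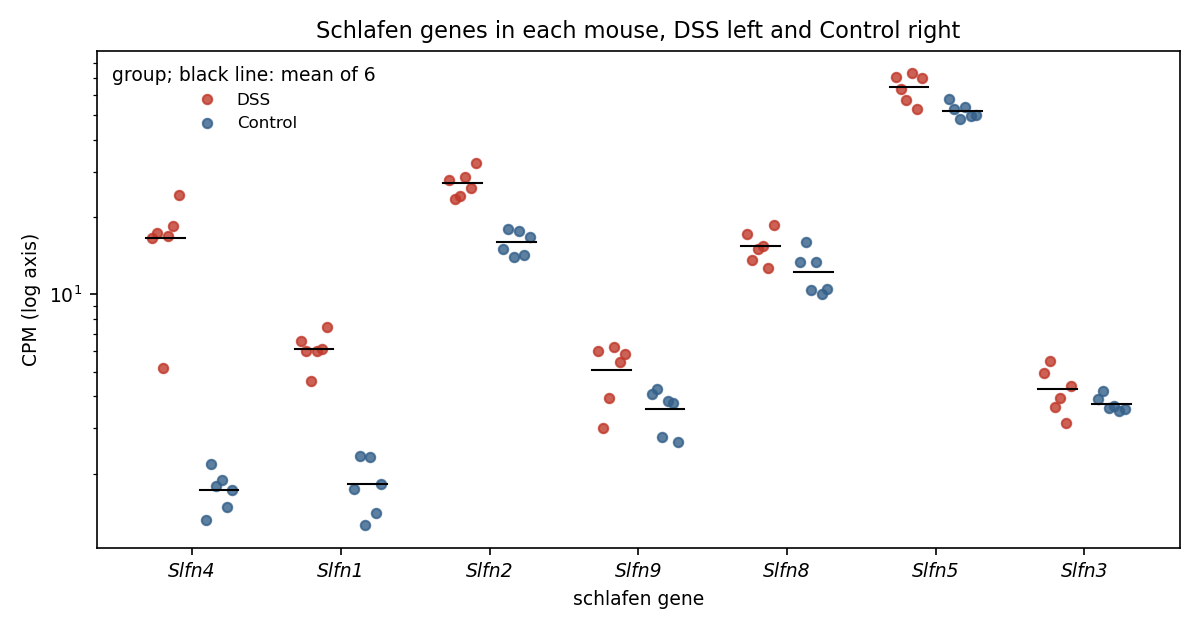
CPM of each member in each mouse on a log axis, with 6 DSS mice (red, left) and 6 Control mice (blue, right) per gene and black lines at the group means, ordered by fold change. The DSS and Control points are separate for Slfn4, Slfn1 and Slfn2 and overlap for Slfn9, Slfn8, Slfn5 and Slfn3, and 1 DSS mouse is low for Slfn4.

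Among the short members, Slfn1 is the founding gene of the family and slows the growth of thymocytes when overexpressed. Slfn1 was at 4.59 CPM in the lowest, 6.07 in the median and 7.49 in the highest DSS mouse, and at 1.26, 1.78 and 2.35 CPM in the lowest, median and highest Control mouse. The groups were well apart, with the lowest DSS mouse (replicate 3) still above the highest Control mouse (replicate 2). Means were 6.13 ± 0.942 CPM in DSS mice and 1.82 ± 0.454 CPM in Control mice (SD, n = 6 each), a log2 fold change of 1.75 ± 0.17 (SE). These values rest on 82 to 225 counts per DSS mouse and 14 to 81 counts per Control mouse.

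Slfn2 keeps T lymphocytes and monocytes quiescent in mice and protects transfer RNA from cleavage under oxidative stress. Slfn2 was at 23.5 CPM in the lowest, 27.0 in the median and 32.5 in the highest DSS mouse, and at 14.0, 15.8 and 17.9 CPM in the lowest, median and highest Control mouse. Every DSS mouse was again above every Control mouse, although the difference was smaller than for Slfn1. Means were 27.2 ± 3.33 CPM in DSS mice and 15.9 ± 1.74 CPM in Control mice (SD, n = 6 each), a log2 fold change of 0.77 ± 0.095 (SE). Counts were 320 to 978 per DSS mouse and 156 to 694 per Control mouse.

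Of the intermediate members, Slfn4 is expressed in mouse myeloid cells, where it responds to interferon and Toll-like receptor ligands and falls as macrophages mature. Slfn4 was at 5.18 CPM in the lowest, 17.2 in the median and 24.5 in the highest DSS mouse, and at 1.32, 1.76 and 2.18 CPM in the lowest, median and highest Control mouse. DSS replicate 3 was the low mouse, and the other 5 DSS mice lay between 16.6 and 24.5 CPM. Even that mouse was above all 6 Control mice. Means were 16.5 ± 6.27 CPM in DSS mice and 1.73 ± 0.305 CPM in Control mice (SD, n = 6 each), a log2 fold change of 3.29 ± 0.30 (SE). Leaving out DSS replicate 3 gave a log2 fold change of 3.47 ± 0.15 (SE), or 11.1-fold. Counts were 130 to 735 per DSS mouse and 20 to 61 per Control mouse.

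Slfn3, the neighbour of Slfn4 on the chromosome, has been linked to differentiation of the gut epithelium in rodents and to subsets of T lymphocytes. Slfn3 was at 3.15 CPM in the lowest, 4.17 in the median and 5.51 in the highest DSS mouse, and at 3.52, 3.64 and 4.19 CPM in the lowest, median and highest Control mouse. The groups overlapped, with 3 DSS mice above the highest Control mouse and 1 DSS mouse below the lowest. Means were 4.26 ± 0.864 CPM in DSS mice and 3.74 ± 0.258 CPM in Control mice (SD, n = 6 each), a log2 fold change of 0.18 ± 0.14 (SE). Slfn3 thus had the lowest fold change of the members and lies 1113 bases from the end of Slfn4, which had the highest.

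Among the long members, Slfn5 is an interferon-induced nuclear protein studied mostly as human SLFN5, which restrains herpesvirus transcription. Slfn5 was at 53.0 CPM in the lowest, 66.4 in the median and 72.7 in the highest DSS mouse, and at 48.1, 51.4 and 57.9 CPM in the lowest, median and highest Control mouse. Of the 6 DSS mice, 4 were above the highest Control mouse, and replicates 3 and 5 lay within the Control range. Means were 64.4 ± 7.95 CPM in DSS mice and 52.0 ± 3.54 CPM in Control mice (SD, n = 6 each), a log2 fold change of 0.31 ± 0.083 (SE). Slfn5 was past the threshold in 8 of 18 settings, so its place in the count of members called above depends on the setting.

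Slfn8 is a long form expressed in mouse lymphocytes and myeloid cells. Slfn8 was at 12.7 CPM in the lowest, 15.2 in the median and 18.7 in the highest DSS mouse, and at 10.0, 11.9 and 15.9 CPM in the lowest, median and highest Control mouse. The groups overlapped, and 2 DSS mice (replicates 1 and 6) were above the highest Control mouse. Means were 15.4 ± 2.21 CPM in DSS mice and 12.3 ± 2.34 CPM in Control mice (SD, n = 6 each), a log2 fold change of 0.34 ± 0.13 (SE).

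Slfn9 is the neighbour of Slfn8 and is transcribed from the same strand. Slfn9 was at 3.01 CPM in the lowest, 5.64 in the median and 6.24 in the highest DSS mouse, and at 2.67, 3.79 and 4.28 CPM in the lowest, median and highest Control mouse. The groups overlapped, with 4 DSS mice above the highest Control mouse and DSS replicates 2 and 3 among the Control values. Means were 5.08 ± 1.30 CPM in DSS mice and 3.56 ± 0.676 CPM in Control mice (SD, n = 6 each), a log2 fold change of 0.52 ± 0.19 (SE).

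**Figure D2:**
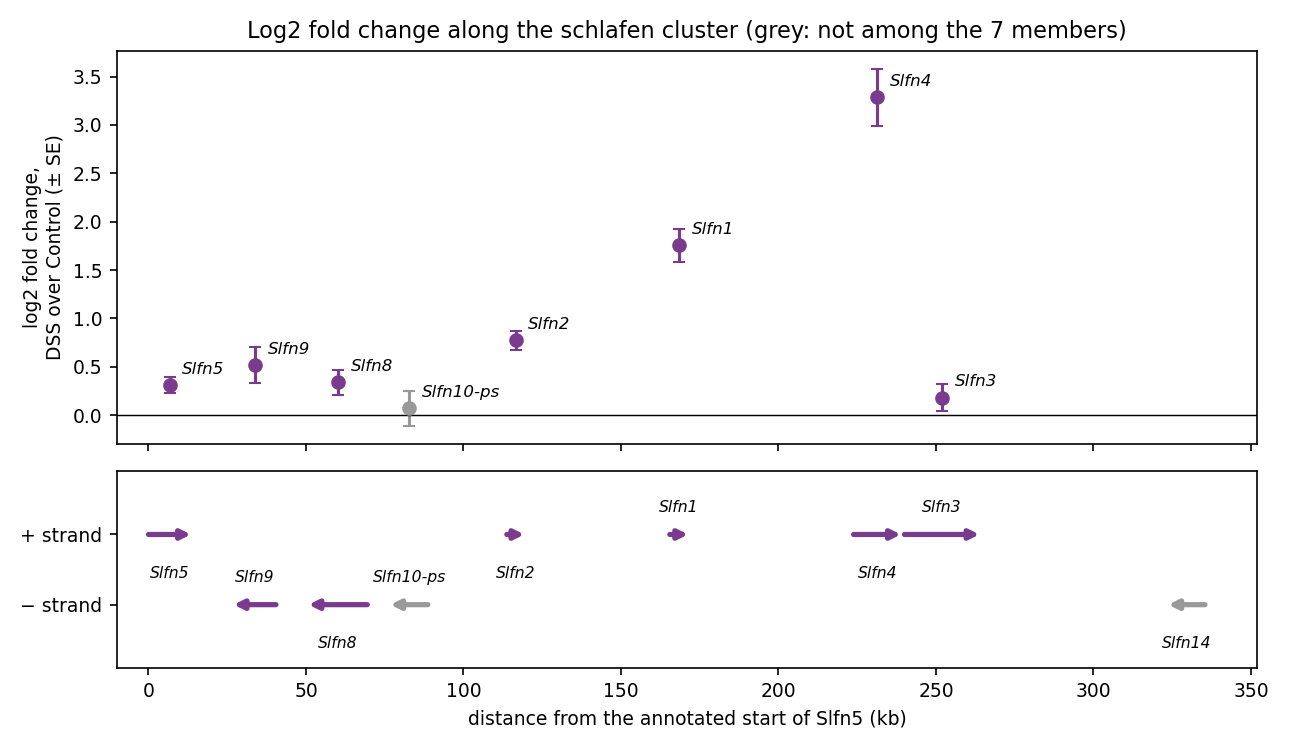
Upper panel, log2 fold change DSS over Control (± SE, 6 mice per group) of each tested gene of the cluster at its position; lower panel, the genes to scale with their strand, as distance in kilobases from the annotated start of Slfn5. The values climb through Slfn2 (0.77), Slfn1 (1.75) and Slfn4 (3.29), which follow each other on the plus strand, and are low again at Slfn3 (0.18), and the pseudogene Slfn10-ps (grey, 0.068) is between Slfn8 and Slfn2.

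The other rows named Slfn had few reads. The pseudogene Slfn10-ps was at 1.65 ± 0.277 CPM in DSS mice and 1.56 ± 0.292 CPM in Control mice (SD, n = 6 each), a log2 fold change of 0.068 ± 0.18 (SE). Slfn14, which encodes a ribosome-associated nuclease of platelets and red cell precursors, had 2 to 7 counts per DSS mouse and 1 to 13 counts per Control mouse and was not tested. Slfnl1, a schlafen-like gene on chromosome 4, had 2 to 15 counts per DSS mouse and 5 to 12 counts per Control mouse and was not tested. Slfn5os, which runs antisense over Slfn5, had 0 to 10 counts per DSS mouse and 0 to 4 counts per Control mouse, beside 857 to 2102 counts of Slfn5 per DSS mouse and 535 to 2686 per Control mouse.

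Members resemble each other in sequence, and how reads that fit several places were counted is not given in the sources used here. Of the 75-base words in each gene's GENCODE M21 transcripts, 0% of those of Slfn1, 1.70% of Slfn2, 3.12% of Slfn4 and 1.53% of Slfn5 occurred in another gene. The shares were larger for Slfn3 (6.78%), Slfn8 (6.99%), Slfn9 (5.90%) and Slfn10-ps (11.5%). Slfn8, Slfn9 and Slfn10-ps shared words mostly with one another, and Slfn3 shared 3.73% of its words with the predicted gene Gm11427. Values of these members are uncertain to the extent that such reads were split or dropped, while the 3 members whose groups did not overlap had small shares.

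The make-up of the family's RNA differed between the groups as well as its amount. The members' CPM summed to between 114 and 163 in DSS mice and between 82.0 and 99.7 in Control mice, without overlap. Slfn4 took between 4.55% and 14.97% of the family's CPM in DSS mice and between 1.35% and 2.19% in Control mice. In DSS mice other than replicate 3 the lowest share was 11.1%. Slfn5, the member with the most reads, took between 42.4% and 50.4% in DSS mice and between 53.0% and 59.5% in Control mice. The fitted fold of Slfn5 itself was 1.24, so its lower share is not a fall in its level. These sums and shares describe the values on which the members were chosen.

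Levels of different members were compared as CPM per kilobase of exon (RPKM), since long transcripts collect more reads. In DSS mice the order by mean was Slfn2, Slfn5, Slfn4, Slfn8, Slfn1, Slfn3 and Slfn9. In Control mice it was Slfn2, Slfn5, Slfn8, Slfn3, Slfn1, Slfn9 and Slfn4. Slfn2 was at the top in both groups, with a level of 16.3 ± 2.00 RPKM in DSS mice and 9.58 ± 1.05 RPKM in Control mice (SD, n = 6 each). Slfn5 followed with 10.2 ± 1.26 RPKM in DSS mice and 8.22 ± 0.560 RPKM in Control mice. Slfn4 followed in DSS mice at 4.17 ± 1.58 RPKM but was last in Control mice at 0.437 ± 0.0771 RPKM.

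Some neighbours in these orders were not separated. In DSS mice Slfn4 was above Slfn8 (3.77 ± 0.541 RPKM) in 4 of 6 mice, and Slfn8 was above Slfn1 (3.29 ± 0.505 RPKM) in 5 of 6. In Control mice Slfn2 was above Slfn5 in 5 of 6 mice, and Slfn3 (1.10 ± 0.0755 RPKM) was above Slfn1 (0.974 ± 0.243 RPKM) in 4 of 6. The other 8 of the 12 neighbouring steps held in all 6 mice of their group. Slfn9 was at 0.852 ± 0.218 RPKM in DSS mice and 0.597 ± 0.113 RPKM in Control mice, Slfn3 was at 1.25 ± 0.253 RPKM in DSS mice, and Slfn8 was at 3.00 ± 0.573 RPKM in Control mice.

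**Figure D3:**
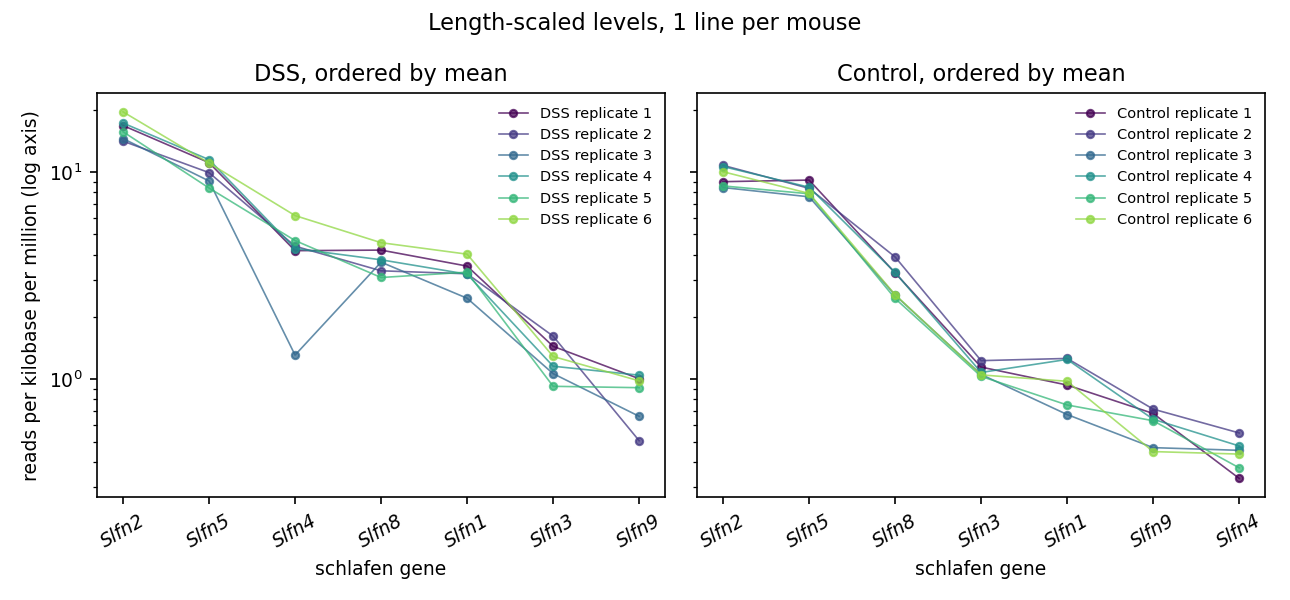
RPKM of the members on a log axis, 1 line per mouse, for DSS (left) and Control (right), each ordered by the group's mean. Lines that cross show neighbours whose order varies between mice; Slfn4 comes after Slfn2 and Slfn5 in DSS mice and is the last in Control mice.

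Differences between mice of the same group were not used to choose the members, so they could be tested. For each pair of members, log2 CPM had the group mean subtracted and the deviations of the 12 mice were correlated, with a permutation test within groups and Benjamini-Hochberg adjustment over the 21 pairs. Slfn1 and Slfn2 was the only pair past the threshold (Pearson r = 0.84, permutation test, adjusted p = 0.0204). Its Spearman rho was 0.80 (permutation test, adjusted p = 0.0787), and r was 0.81 without the 2 mice farthest from the median of Slfn1. The pair missed the threshold without DSS replicate 6 (r = 0.84), Control replicate 2 (0.82), Control replicate 4 (0.82) or Control replicate 6 (0.85). Over the other 20 pairs r lay between -0.16 for Slfn3 and Slfn9 and 0.71 for Slfn2 and Slfn8. Slfn3 and Slfn8 passed as well when DSS replicate 2 was left out, and Slfn1 and Slfn4 when Control replicate 1 or 3 was.

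Each member was next set against gene lists in the same way, over 42 relations that were added after the data had been seen. The lists were the neutrophil, granulocyte precursor, monocyte, border macrophage and T lymphocyte markers and the interferon-stimulated antiviral genes. The other marker lists and the interferon receptors and regulators were left out, and the adjusted p covers only the 42 relations. Slfn8 followed the interferon-stimulated antiviral genes (30 genes): r was 0.86 (permutation test, adjusted p = 0.0349) and rho 0.87 (permutation test, adjusted p = 0.0344), and r was 0.84 without the 2 farthest mice. It was the only relation past the threshold. With 1 mouse left out r stayed between 0.81 and 0.94, and the relation was past the threshold in 4 of 12 cases. It missed the threshold without DSS replicate 3 (r = 0.87), 4 (0.87), 5 (0.84) or 6 (0.86), and without Control replicate 1 (0.86), 2 (0.81), 4 (0.86) or 6 (0.85). For Slfn5 and the same list r was 0.69 (permutation test, adjusted p = 0.0913), and for Slfn4 it was 0.19 (permutation test, adjusted p = 0.599). The remaining members lay between these, with r at 0.68 for Slfn1, 0.66 for Slfn9, 0.60 for Slfn2 and 0.49 for Slfn3. A positive r with this list was thus not particular to Slfn8 or to the long members.

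Slfn4 had its highest r with the summed CPM of 11 neutrophil markers, at 0.90 (permutation test, adjusted p = 0.0909), with rho at 0.90 (permutation test, adjusted p = 0.0766). The value fell short of the threshold and leaned on 1 mouse: r was 0.56 without DSS replicate 3, and 0.68 without the 2 farthest mice. Without Control replicate 4 it was 0.96 and past the threshold. Slfn4 also had a high r with the granulocyte precursor markers (0.85, permutation test, adjusted p = 0.12). With the monocyte markers its r was 0.79 (permutation test, adjusted p = 0.17). Without the 2 farthest mice these values were 0.36 and 0.55, beside 0.68 for the neutrophil list. A high r over all mice was thus not particular to the neutrophil list. Whether the r values of Slfn4 with these lists differ was not tested. For Slfn8 and the neutrophil markers r was 0.23 (permutation test, adjusted p = 0.58). Other relations came as near to the threshold: Slfn9 and the border macrophage markers had an r of 0.76 (permutation test, adjusted p = 0.0909) and a rho of 0.64 (adjusted p = 0.183), with r at 0.53 without the 2 farthest mice. Slfn2 and the monocyte markers had an r of 0.65 (permutation test, adjusted p = 0.142) and a rho of 0.79 (adjusted p = 0.0766), with r at 0.81 without the 2 farthest mice. Whether the r values of Slfn4 and Slfn8 differ from each other was not tested.

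**Figure D4:**
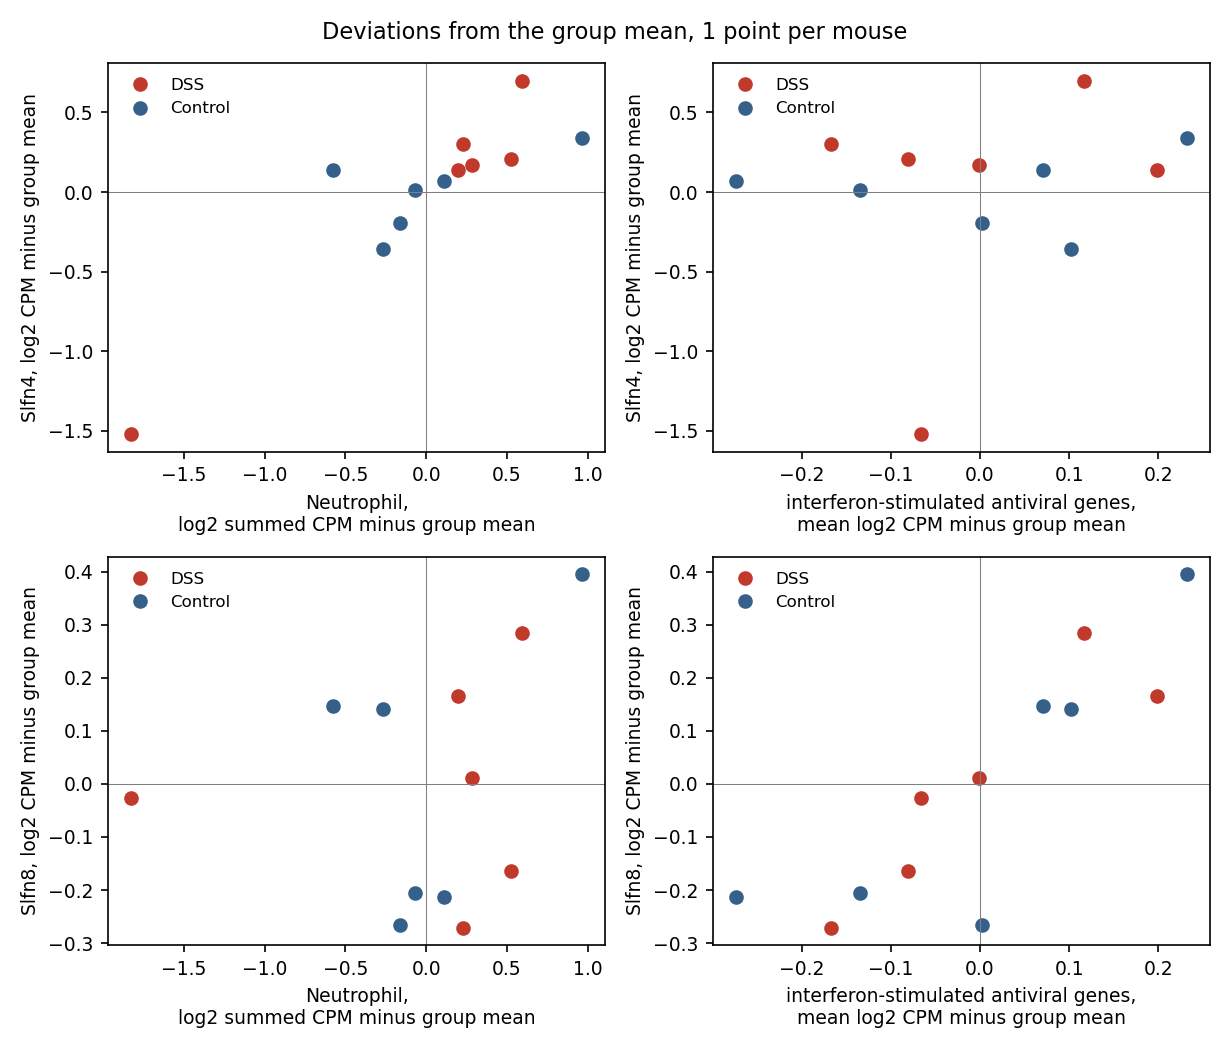
Deviations of Slfn4 (upper panels) and Slfn8 (lower panels) from the group mean in log2 CPM, against those of the neutrophil marker sum (left) and of the antiviral interferon genes (right), 1 point per mouse, DSS red and Control blue. DSS replicate 3 is the point at the lower left of the Slfn4 and neutrophil panel (r = 0.90 over 12 mice), and Slfn8 and the antiviral genes lie along a rising band (r = 0.86).

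**Figure D5:**
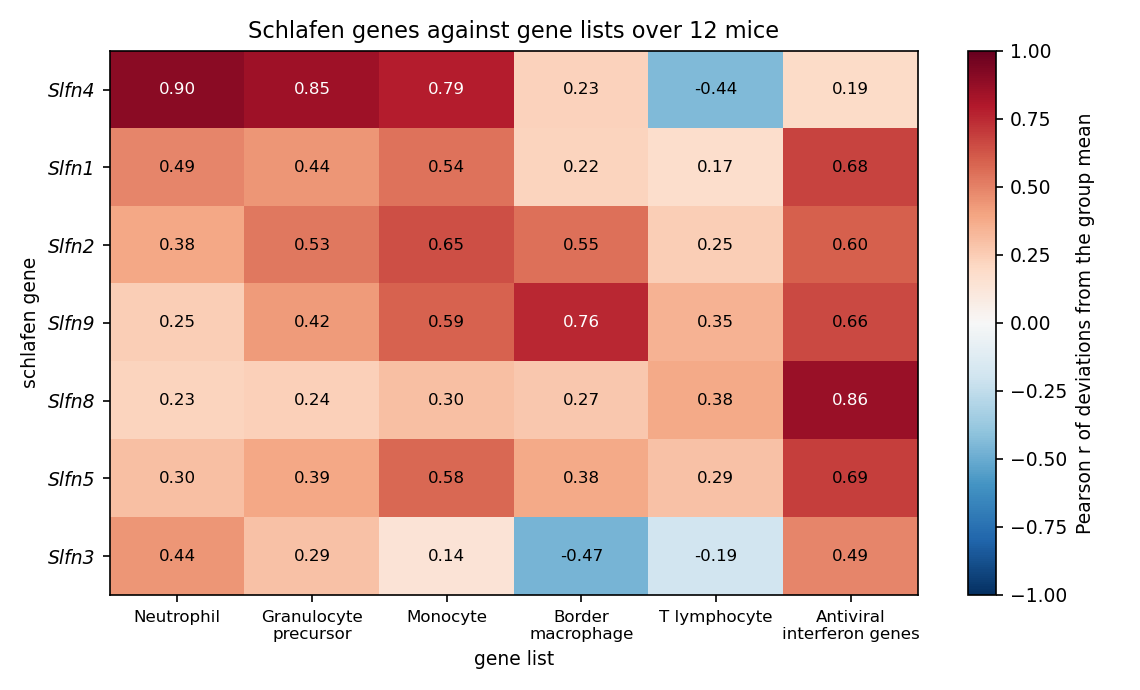
Pearson r over 12 mice between the deviations of each member (rows, ordered by fold change) and of each gene list (columns), coloured from -1 (blue) to 1 (red). Only Slfn8 with the antiviral interferon genes (0.86) passed the adjusted threshold over the 42 relations; the highest value is Slfn4 with the neutrophil list (0.90).

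Markers of blood cells moved with the groups beside Slfn4, Slfn1 and Slfn2. The 11 neutrophil markers all rose in DSS mice (edgeR, adjusted p under 0.05 over all genes), and their sum was 255 CPM in the lowest, 1082 in the median and 1363 in the highest DSS mouse, against 67.4, 92.7 and 196 CPM in the lowest, median and highest Control mouse. DSS replicate 3, the low mouse for Slfn4, was also the low mouse for this sum. The 5 granulocyte precursor markers all rose, with sums of 12.1 to 93.8 CPM in DSS mice and 2.82 to 8.89 CPM in Control mice. Of 6 monocyte markers 5 rose, with sums of 215 to 401 CPM in DSS mice and 153 to 183 CPM in Control mice. The share of all tested genes that rose was 3.68%. None of these 22 markers was at 0 in a whole group, and their part in the schlafen differences was not tested. In RNA from whole tissue, more cells of a type and more RNA per cell cannot be told apart.

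Markers of border macrophages and lymphocytes did not pass the test in the edgeR fit. Of all tested genes 4.94% were called in either direction. In lists this short, 0 called is near that share and is no result about the list. The 6 border macrophage markers summed to 242 to 473 CPM in DSS mice and 283 to 323 CPM in Control mice, with 0 of 6 called. The 7 T lymphocyte markers summed to 13.7 to 21.2 CPM in DSS mice and 11.9 to 19.0 CPM in Control mice, with 0 of 7 called. The 5 B lymphocyte markers summed to 3.71 to 13.7 CPM in DSS mice and 8.38 to 10.6 CPM in Control mice, with 0 of 5 called. Each of these 3 lists had 1 gene with an unadjusted p under 0.05 (Lyve1, Cd4 and Ms4a1), and DESeq2 called 1 of them, Cd4. Of 5 plasmacytoid dendritic cell markers edgeR called 0, with Siglech and Bst2 at an unadjusted p under 0.05, and DESeq2 called Bst2. Of 6 meningeal fibroblast markers edgeR called 1, Aldh1a2, which fell in DSS mice (log2 fold change -0.62 ± 0.12 SE, adjusted p = 0.00874), and DESeq2 called Dcn as well.

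Genes of the interferon pathway, which induces several schlafen genes, were higher in DSS mice in part. Of 18 interferon receptors and regulators, 6 rose and 0 fell, with a median log2 fold change of 0.19 for the list, and the 4 with the smallest p were Irf1, Irf7, Irf5 and Ifnar2. Irf7, the regulator of late type I interferon production, was at 26.0 ± 4.13 CPM in DSS mice and 16.7 ± 2.44 CPM in Control mice (SD, n = 6 each; edgeR, log2 fold change 0.64 ± 0.12 SE, adjusted p = 0.00653). Irf1, an interferon-induced transcription factor, was at 66.6 ± 8.77 CPM in DSS mice and 46.9 ± 4.37 CPM in Control mice (edgeR, log2 fold change 0.51 ± 0.092 SE, adjusted p = 0.00549). Irf5, a factor of macrophage activation, was at 25.1 ± 4.86 CPM in DSS mice and 16.6 ± 2.05 CPM in Control mice (edgeR, log2 fold change 0.60 ± 0.13 SE, adjusted p = 0.0159), with DSS replicate 2 far below the rest of its group. With the replicate number as a block, Irf5 no longer passed (log2 fold change 0.59). Ifnar2, a chain of the type I interferon receptor, was at 57.4 ± 5.03 CPM in DSS mice and 46.4 ± 3.39 CPM in Control mice (edgeR, log2 fold change 0.31 ± 0.070 SE, adjusted p = 0.0217). Without DSS replicate 4, 3 genes of the list passed, and Ifnar2 no longer did. The shares stand beside the 3.68% of all tested genes that rose. They are a description, because the list was chosen with earlier results of these data known.

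Of 30 interferon-stimulated antiviral genes, 13 rose and 0 fell, the list's median log2 fold change was 0.44, and 7 of the 30 had every DSS mouse above every Control mouse. Over all tested genes, 3.68% rose and 2.23% had every DSS mouse above every Control mouse. This list too was chosen with earlier results of these data known, so its counts are a description. Zbp1, a sensor of Z-form nucleic acid, was at 8.23 ± 1.11 CPM in DSS mice and 4.14 ± 0.844 CPM in Control mice (SD, n = 6 each; edgeR, log2 fold change 0.98 ± 0.15 SE, adjusted p = 0.00161). Oas2, which makes the messenger that activates RNase L, was at 9.89 ± 2.55 CPM in DSS mice and 4.64 ± 0.823 CPM in Control mice (edgeR, log2 fold change 1.08 ± 0.17 SE, adjusted p = 0.00248). Oas1a of the same family was at 14.4 ± 2.74 CPM in DSS mice and 8.07 ± 1.20 CPM in Control mice (edgeR, log2 fold change 0.84 ± 0.13 SE, adjusted p = 0.00246). Samhd1, which depletes nucleotides, was at 65.7 ± 8.08 CPM in DSS mice and 46.0 ± 5.41 CPM in Control mice (edgeR, log2 fold change 0.51 ± 0.095 SE, adjusted p = 0.00632). The Oas genes belong to a family of related copies, and the share of their reads that fit several of them was not measured.

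Genes that act on transfer RNA, the substrate of schlafen proteins, did not pass the test. Of 13 listed genes 11 were tested and 0 were called by edgeR, and 0 were called by DESeq2. Of all tested genes edgeR called 4.94% in either direction, so 0 of 11 is near that share and is no result about the list. Only 1 had an unadjusted p under 0.05, Trdmt1, a transfer RNA methyltransferase, whose log2 fold change was -0.35 ± 0.14 (SE). The list's median was 0.0036. Of 18 genes of lymphocyte quiescence, the state that Slfn2 upholds, 1 rose and 0 fell, with a median of 0.045. That is 5.56% of the list, near the 3.68% of all tested genes that rose, and is no result about the list. The gene was Vsir, which encodes the checkpoint protein VISTA of myeloid cells and T lymphocytes, at 103 ± 12.3 CPM in DSS mice and 69.8 ± 6.42 CPM in Control mice (SD, n = 6 each; edgeR, log2 fold change 0.56 ± 0.087 SE, adjusted p = 0.00222). Without DSS replicate 2, 2 genes of this list were called.

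The genes whose deviations were most like those of each member were taken as the 3 with the highest Pearson r over the 12 mice, out of 12980 genes. Being the highest of so many, these values are a description and carry no p. For Slfn4 they were Hp (0.95), which encodes haptoglobin, Lcn2 (0.92), a neutrophil granule protein, and Ifitm6 (0.91), and without the 2 mice farthest from the median r was 0.64, 0.76 and 0.52 for these genes in that order. For Slfn8 they were the interferon-induced genes Pyhin1 (0.95), Trim30a (0.94) and Gbp7 (0.91), with 0.90, 0.92 and 0.86 without the 2 farthest mice. For Slfn5 they were Parp14 (0.94), Tmem131 (0.92) and Gvin1 (0.91). Parp14 and Trim30a are also in the list of antiviral genes, and Lcn2 is one of the neutrophil markers used above.

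The other members had more mixed partners. For Slfn1 they were Kcmf1 (0.89), Nusap1 (0.87) and Stradb (0.87). For Slfn2 they were Fbln5 (0.90), Tlr8 (0.88), a receptor for single-stranded RNA, and Pigc (0.88). For Slfn9 they were Snora73a (0.94), Tnfrsf1b (0.92) and Rai14 (0.91). For Slfn3 they were Gcnt1 (0.90), Ppig (0.89) and Pde1a (0.89), all of which were between 0.69 and 0.76 without the 2 farthest mice.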

How the data were processed

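The labels' protocols describe stranded libraries of total RNA from the meninges of 12 mice. Whole-number counts per gene were deposited by the authors; columns were matched to mice by heading, each equal to a sample's description label, and 0 columns were of other samples. The submitters' processing notes name CASAVA, FastQC, Trim Galore, HISAT2, featureCounts and mm10, without settings. Versions, annotation, strand setting and the handling of multimapping reads were not given in the sources used here. A second table, the counts divided by a factor per library, was not used.

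Counts were fitted in R 4.3.3 with edgeR 4.0.16 (filterByExpr, minimum count 10 and minimum total 15, TMM, quasi-likelihood F-test, treatment as the only term, two-sided, Benjamini-Hochberg adjusted p under 0.05 over 18593 genes). The standard error of a log2 fold change is its size divided by the square root of F, and CPM uses TMM library sizes. Log2 CPM has a prior count of 2. RPKM is CPM per kilobase of merged exons. The edgeR p-values set the difference between the groups against the spread between mice. Depth was 9312788 to 41869997 counts per mouse and sets the counting error.

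Deviations from group means were tested two-sided with 100000 permutations within groups. Positions and exon lengths come from GENCODE M21 on GRCm38, in which 45251 of 47747 symbols (94.8%) were found, and promoters from RefSeq on GRCm38.p6. The steps were tested on simulated data. As alternatives the fit was repeated with the size factors of DESeq2, with its Wald test (version 1.42.0), without a filter except at least 1 count, with the replicate number as a block, without each mouse, and without Control replicate 2 and DSS replicate 2 together.

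The members and lists were chosen with earlier results of these data known. Named genes were every row whose symbol begins with Slfn, up to 4 called genes with the smallest p per list, and 3 partners per member among genes whose mean log2 CPM was 1 or more; Trdmt1, Gm11427, Lyve1, Cd4, Ms4a1, Siglech, Bst2, Aldh1a2 and Dcn were named after their values were seen.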

Additional observations from a re-analysis of the deposited data

Results flagged for a closer look

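In each group of 6 mice, the highest and lowest values of the reported genes and marker sums were checked for a mouse far from the rest (Dixon's gap test at the 95% level). Of 60 groups 4 had such a mouse (6.67%), where chance gives about 1 in 20. Slfn4 in DSS replicate 3 was at 2.40 log2 CPM, while the other 5 DSS mice lay between 4.06 and 4.62. The neutrophil marker sum of the same mouse was at 7.99 on the log2 scale, while the other 5 lay between 10.0 and 10.4. The part of these markers in the low Slfn4 value was not tested. The skeletal muscle marker sum of DSS replicate 2 was at 7.25 on the log2 scale, while the other 5 DSS mice lay between 0.61 and 2.02. Irf5 in DSS replicate 2 was at 3.97 log2 CPM, while the other 5 DSS mice lay between 4.69 and 4.89.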

How the results depend on the processing

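No called result reversed its direction under any alternative run. The log2 fold change of Slfn4 ranged from 3.13 to 3.47 over 18 settings, that of Slfn1 from 1.69 to 1.85 and that of Slfn2 from 0.71 to 0.85; 3 to 5 members were past the threshold. Over all genes, 919 were called (684 higher, 235 lower in DSS), against 1551 (1036 and 515) with the DESeq2 Wald test; without the filter 156 were lower. With 1 mouse left out there were 538 to 1379 calls (443 to 989 higher, 95 to 390 lower), the fewest without DSS replicate 6 and the most without DSS replicate 2. Over all settings 3 to 9 interferon regulators and 9 to 17 antiviral genes were called; quiescence genes had 1 to 2, and 2 without Control replicate 2 and DSS replicate 2. Pairs of members past the threshold numbered 0 to 2. Same-numbered DSS and Control mice were not more alike than others: their correlations of deviations ran from -0.19 to 0.15, and 1 of 6 was over 0.1. Differently numbered mice had correlations from -0.36 to 0.39. These values cannot show whether same-numbered mice shared a cage or a day. With the replicate block, 708 genes were called (547 higher, 161 lower), with 4 schlafen members, 4 interferon regulators (Irf5 no longer among them, log2 fold change 0.59) and 11 antiviral genes. Ifnar2 also missed the threshold without the filter (0.31). The order of RPKM levels was the same with DESeq2 size factors and with the longest transcript. The cause of these shifts was not tested. Slfn9, Slfn4 and Slfn1 in Control mice rest on as few as 31, 20 and 14 counts in a library, which limits the precision of their values and folds.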
